A study of Homo sapiens with 4 samples.

Results

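The genes described here encode the coagulation and fibrinolysis factors, the plasma proteins that build and dissolve the fibrin clot, with the enzymes that modify them. The set holds 34 genes chosen by name, and a gene was measured through the probe sets that the platform's table pairs with its symbol alone. Of the 34, 32 had at least 1 probe set above the limit for dim signal and were tested, out of 19140 genes tested in all. The 2 groups are Huh7 cells treated with a small interfering RNA against NF90 (siNF90) and Huh7 cells treated with siNTC, the control in the sample titles, with 2 arrays each. Huh7 is a single human hepatocellular carcinoma line, so every array shares its genotype and none stands for normal liver. NF90 is a nuclear factor with domains for double-stranded RNA. The labels name no separate cultures for the replicates, and the p-values rest on a spread that may be technical only. NF90's own transcript was not used here, and the depletion was taken from the labels.

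Hepatocytes secrete most clotting factors. Clotting runs through a cascade of serine proteases that ends with thrombin (from F2), which cuts fibrinogen to fibrin, while factor XIII crosslinks the fibrin. Several proteases carry glutamates that a vitamin K-dependent carboxylase modifies, and without that step they bind membranes poorly. Serpins and tissue factor pathway inhibitor hold the cascade back, and plasmin, made from plasminogen by urokinase or tissue-type activator, dissolves the clot.

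Each value is a log2 RMA value. A gene value is the mean over the gene's probe sets whose mean over the 4 arrays reached the limit of 2.13, the 40th percentile of all probe sets, and a difference is siNF90 minus siNTC. Array medians over all probe sets were 2.72 to 2.79. Least like the others was the second siNF90 array, with r = 0.936 to 0.950 across genes, which are not independent replicates. Of 10 hepatocyte and hepatoma markers 9 were measured, with siNTC means between 5.92 for APOA1 and 11.09 for albumin (ALB). The siNTC means of the measured endothelial markers lay between 2.46 and 2.96, close to the dim limit, and those of fibroblast and stellate markers between 2.07 and 3.61. Of the leukocyte and platelet markers, LYZ had 8.95 and PF4 5.29, and the others 3.37 or less. Of the 9 hepatocyte markers, which include FGB, 5 had both siNF90 arrays below both siNTC arrays (55.6%, beside 22.0% of all genes) and 1 had both above (11.1%, beside 19.2%). ALB differed by -0.39 (SE 0.19) and AFP, the fetal albumin relative, by -0.069 (SE 0.17), and the part of such shifts in the results below was not tested. In bulk RNA, fewer cells of a kind and less RNA per cell cannot be told apart.

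None of the 32 genes passed the test. limma with Benjamini-Hochberg adjustment over all genes called 0 of them at an adjusted p of 0.05, beside 0% of all genes, and their smallest adjusted p was 0.514. With a trend and robust prior limma again called 0 of the 32, beside 0.251% of all genes. An unadjusted p under 0.05 was found for 3 genes, plasminogen (PLG) and the fibrinogen beta chain (FGB) lower and factor V (F5) higher in siNF90 cells, which is 9.38% beside 8.79% of all genes. The arrays of the groups did not overlap in 19 of the 32 genes (59.4%, beside 41.1% of all genes). Of these, 11 were lower in siNF90 cells (34.4%, beside 22.0%) and 8 higher (25%, beside 19.2%). Among the 8, PROC, VKORC1, PLAT and F11 each hold a probe set that passed the dim filter only through its siNF90 values. Among the 11, CPB2 does too. The reverse, passing only through siNTC values, holds for a probe set each of PLAT, F13B and SERPINA5. Both counts may thus rest in part on the filter, and they were not repeated without just these probe sets. The higher count fell to 5 (15.6%, beside 18.2% of all genes) with the median of a gene's probe sets in place of the mean. It was 4 (12.5%, beside 19.1%) without each member's most different probe set. The median difference was -0.062, against -0.018 over all genes, and 17 of the 32 differences were negative (53.1%, beside 52.5% of all genes). That median was 0.047 without the second siNTC array, so its sign rests on that array. Differences ran from -0.77 to 0.51, and those of F9, F13A1 and HRG had intervals wider than 3 log2 units. By role, all 4 fibrinogen and related genes had negative differences, all 3 of F5 and the factor XIII genes had positive ones, both carboxylation enzymes had positive ones, and the other roles held both signs.

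**Figure D1:**
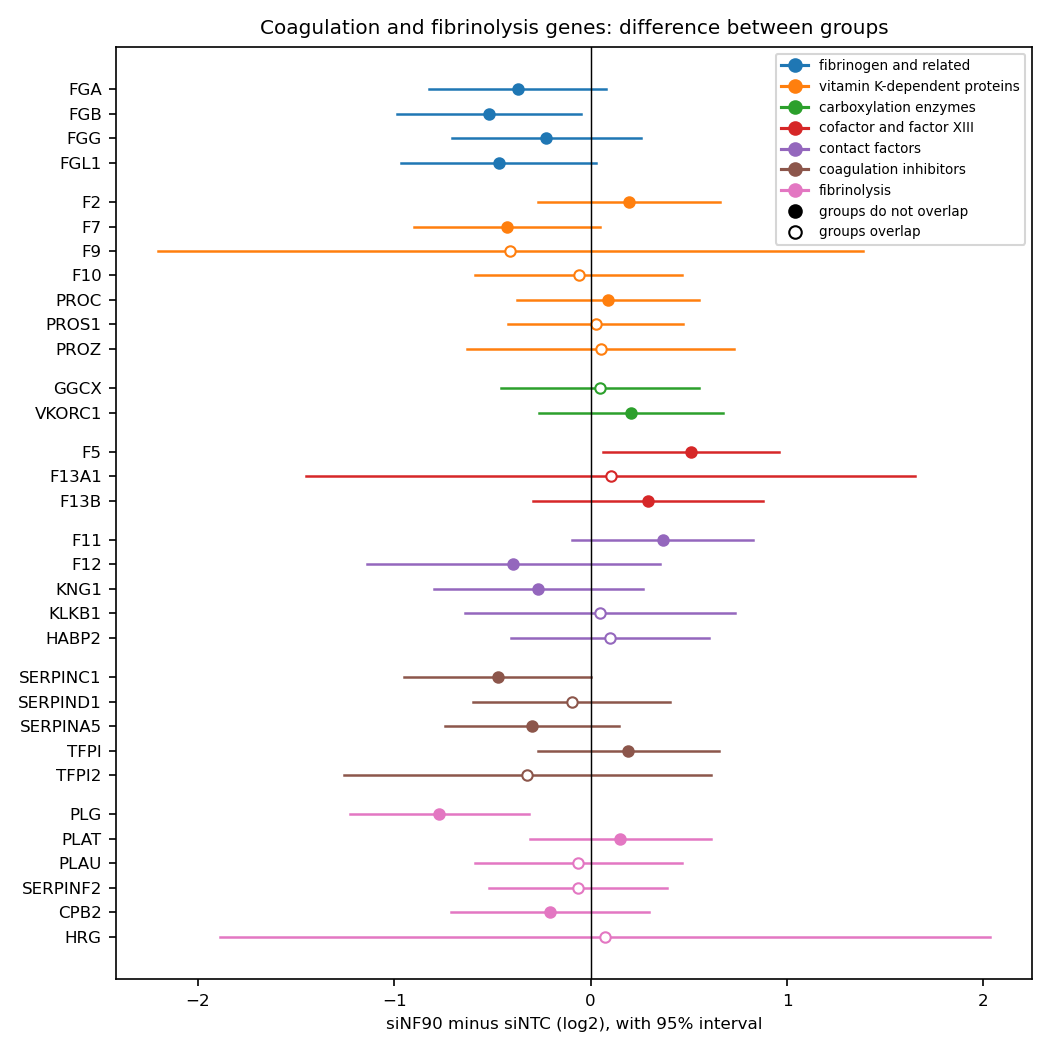
Difference between siNF90 and siNTC (log2, x axis) for the 32 genes by role (y axis), with the 95% interval of the limma fit and filled points where the arrays of the groups do not overlap. All 4 fibrinogen and related genes lie left of 0, F5 lies right of it at 0.51, and PLG is lowest at -0.77.

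Fibrinogen is a hexamer of alpha, beta and gamma chains, encoded by FGA, FGB and FGG, which are neighbours on chromosome 4 in the RefSeq gene table. All 3 chains had lower values in siNF90 cells, and in each the siNF90 arrays lay under the lower siNTC array, as in 22.0% of all genes. FGB had values of 9.31 and 9.47 on the siNTC arrays and 8.89 and 8.85 on the siNF90 arrays. That difference of -0.52 (SE 0.18, 95% interval -0.99 to -0.051) is 1.43-fold lower, with an unadjusted p of 0.0362 and an adjusted p of 0.547 in limma. With the trend and robust prior its adjusted p was 0.0649, the lowest reached by any of the 32 genes under the settings tried. FGA had 9.07 and 9.18 in siNTC and 8.76 and 8.75 in siNF90 cells. The FGA difference of -0.37 (SE 0.17) had an interval from -0.83 to 0.081. FGG had 8.75 and 8.95 in siNTC against 8.67 and 8.58 in siNF90 cells, so its groups were separated by less than the gap between its siNTC arrays. Its difference was -0.23 (SE 0.18, interval -0.71 to 0.26), and -0.12 without the second siNTC array.

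The single probe sets give the same picture for FGA and FGB, with the caution that probe sets of a gene share their arrays and are not replicates. All 11 probe sets of FGA and all 13 of FGB had negative differences, and in 8 and 12 of them the groups did not overlap. Among all probe sets, 20.3% had both siNF90 arrays lower. In FGG 17 of 19 differences were negative and 7 were without overlap. Over probe sets with a mean of at least 8, the median difference was -0.37 in FGA (8 probe sets), -0.36 in FGB (10) and -0.099 in FGG (11). FGB's gene value also draws on 3 dimmer probe sets that differed by -1.38, -1.32 and -0.29, and without the most different probe set its difference was -0.45. FGL1, a fibrinogen-related protein secreted by hepatocytes that does not form fibrin, had 7.27 on each siNTC array and 6.92 and 6.67 on the siNF90 arrays. It differed by -0.47 (SE 0.19, interval -0.96 to 0.026), and its 14 probe sets all had negative differences.

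**Figure D2:**
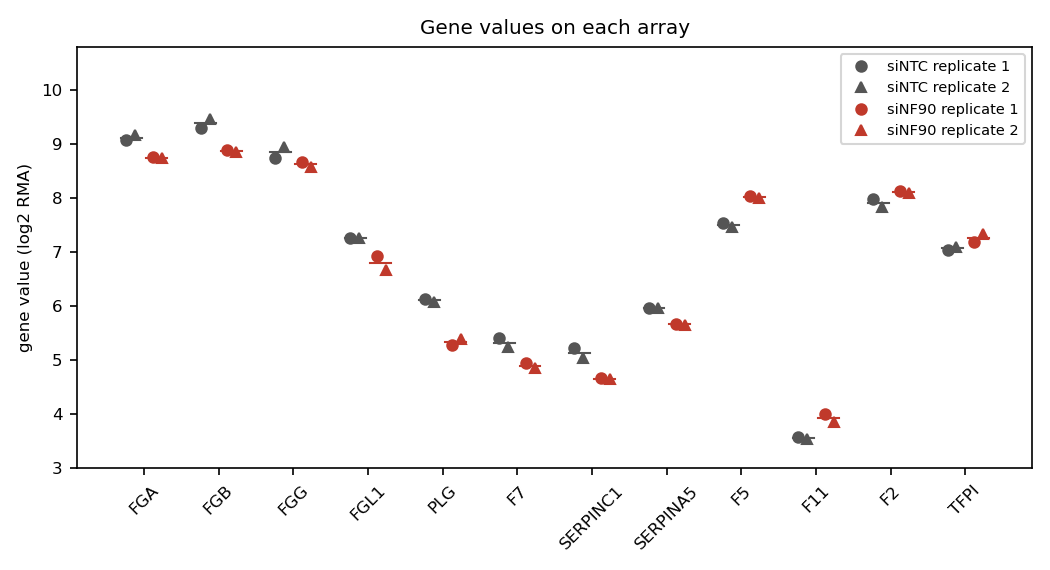
Gene values (log2 RMA, y axis) of 12 genes on each array, with circles for replicate 1, triangles for replicate 2, grey for siNTC, red for siNF90 and lines for group means. In PLG both siNF90 values (5.28 and 5.40) lie below both siNTC values (6.14 and 6.08), and in F5 both lie above.

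The promoters of the fibrinogen trio, of PLG as the gene with the most negative difference and of F5 as that with the most positive are shown, since these genes had the largest shifts or shared 1 locus. The sequences are RefSeq's for GRCh38.p14, with 250 bases before and 50 after the annotated start, 5′ to 3′ on the gene's strand. They lie at chr4:154562730-154563029, plus strand (FGB), chr4:154590693-154590992, minus strand (FGA), chr4:154612607-154612906, minus strand (FGG), chr6:160701943-160702242, plus strand (PLG) and chr1:169586432-169586731, minus strand (F5). Capitals mark 2 short motifs on either strand. GTTAAT (or ATTAAC) is an arm of the palindrome bound by HNF1, a hepatocyte transcription factor, and CTGGGA (or TCCCAG) is the core of the interleukin-6 response element described in fibrinogen genes.
FGB promoter: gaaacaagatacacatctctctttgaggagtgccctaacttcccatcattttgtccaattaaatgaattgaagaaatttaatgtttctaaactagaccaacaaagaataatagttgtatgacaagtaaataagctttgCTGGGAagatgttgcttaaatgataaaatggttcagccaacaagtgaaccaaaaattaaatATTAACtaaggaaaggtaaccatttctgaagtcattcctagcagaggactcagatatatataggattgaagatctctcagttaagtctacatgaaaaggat
FGA promoter: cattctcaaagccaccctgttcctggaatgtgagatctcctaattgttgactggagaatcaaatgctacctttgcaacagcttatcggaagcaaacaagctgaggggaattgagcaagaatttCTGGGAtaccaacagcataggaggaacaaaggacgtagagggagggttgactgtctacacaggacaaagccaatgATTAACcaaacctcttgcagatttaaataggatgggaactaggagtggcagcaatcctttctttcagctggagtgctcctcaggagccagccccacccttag
FGG promoter: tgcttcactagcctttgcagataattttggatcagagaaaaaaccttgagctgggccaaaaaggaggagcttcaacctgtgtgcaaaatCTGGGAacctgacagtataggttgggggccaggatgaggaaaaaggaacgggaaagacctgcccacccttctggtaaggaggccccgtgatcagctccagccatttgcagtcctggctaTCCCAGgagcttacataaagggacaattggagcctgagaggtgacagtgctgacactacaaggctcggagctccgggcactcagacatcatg
PLG promoter: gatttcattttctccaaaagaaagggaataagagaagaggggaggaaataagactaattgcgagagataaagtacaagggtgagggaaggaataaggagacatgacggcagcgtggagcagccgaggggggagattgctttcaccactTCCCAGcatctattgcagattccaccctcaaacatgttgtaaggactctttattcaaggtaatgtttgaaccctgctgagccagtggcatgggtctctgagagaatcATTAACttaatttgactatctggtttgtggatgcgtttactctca
F5 promoter: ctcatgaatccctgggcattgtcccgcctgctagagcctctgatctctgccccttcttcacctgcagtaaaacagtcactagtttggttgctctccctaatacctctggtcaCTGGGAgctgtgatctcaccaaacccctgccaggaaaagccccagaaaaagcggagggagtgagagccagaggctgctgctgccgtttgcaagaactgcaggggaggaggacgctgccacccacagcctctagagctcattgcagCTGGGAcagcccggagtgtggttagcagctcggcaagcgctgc
Of the 34 genes, 29 matched a RefSeq promoter window, some with several windows. GTTAAT on either strand was present in 8 of the 29 (27.6%) and in 8.27% of the 27305 genes with a window. CTGGGA was present in 12 of the 29 (41.4%) and in 37.8% of all. The search covered 2 further motifs, which are not in capitals. The C/EBP motif TTGCNNAA, with N any base, was present in 9 of the 29 (31%) and in 12.7% of all. Its first base lies 101 bases before the start in FGB and 141 in FGA. TATAAA was present in 2 of the 29 (6.9%) and in 14% of all. Both FGB and FGA carry ATTAAC, whose first base lies 51 bases before the start in FGB and 52 in FGA, and the FGG window has no GTTAAT on either strand. In PLG the ATTAAC lies just after the start, at base 6. The CTGGGA letters occur in all 5 windows, with 2 matches each in FGG and F5. Whether any motif bears on the differences was not tested. The motifs do not overlap each other in these windows, and a match is a description of letters, not of binding.

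Among the fibrinolysis genes, PLG stood apart. Plasminogen, the zymogen of plasmin, had 6.14 and 6.08 in siNTC cells and 5.28 and 5.40 in siNF90 cells, a difference of -0.77 (SE 0.17, interval -1.23 to -0.31) or 1.71-fold lower. Its unadjusted p was 0.00796 and its adjusted p 0.514 in limma, and 0.127 with the trend and robust prior. Of its 7 probe sets 5 had lower values without overlap, beside 20.3% of all probe sets, and the other 2 differed by 0.41 and 0.17. PLG has close paralogs in the human genome, and whether its probe sets are free of their signal was not tested. CPB2, the carboxypeptidase TAFI that slows fibrinolysis by trimming fibrin, had 8.07 and 8.14 in siNTC and 7.76 and 8.04 in siNF90 cells, a difference of -0.21 (SE 0.19) that was -0.068 without the first siNF90 array. Its probe sets did not all move alike. Of 15, 14 had negative differences, 12 of them without overlap, beside 20.3% of all probe sets. The remaining one read 6.76 on the second siNF90 array and between 0.96 and 1.18 on the other 3. Without that probe set the CPB2 difference was -0.42.

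Other fibrinolysis genes had small or imprecise differences. SERPINF2, which encodes the plasmin inhibitor alpha-2-antiplasmin, differed by -0.063 (interval -0.52 to 0.39). PLAU, the urokinase, also differed by -0.063 and its groups overlapped. PLAT, the tissue-type activator, had 3.33 and 3.48 against 3.55 and 3.56, a difference of 0.15 (interval -0.31 to 0.61). A probe set of PLAT read 1.43 and 1.52 in siNTC and 2.82 and 3.68 in siNF90 cells. It passed the dim filter only through its siNF90 values. Another read 3.06 and 2.33 against 1.91 and 1.74 and passed only through its siNTC values. Neither can bear on a direction, and PLAT's value without them was not computed. HRG, the histidine-rich glycoprotein that binds plasminogen and heparin, kept 3 of 12 probe sets and had values of 4.16 and 2.03 on the siNF90 arrays, so that neither direction was measured. The 1 probe set of VTN, the PAI-1 cofactor vitronectin, lay below the dim limit at between 1.11 and 1.89 and was not tested.

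Factor V, the cofactor with which factor Xa cuts prothrombin, went the other way from fibrinogen. F5 had 7.54 and 7.47 in siNTC cells and 8.03 and 7.997 in siNF90 cells. That difference of 0.51 (SE 0.17, interval 0.062 to 0.96) is 1.42-fold higher, with an unadjusted p of 0.0332 and an adjusted p of 0.541 in limma. The gap of 0.46 between the nearest arrays of the groups exceeds the gap within either group. Of 23 probe sets 21 had positive differences and 15 were without overlap, beside 18.0% of all probe sets in that direction, and the 9 with a mean of at least 8 ranged from 0.097 to 0.70. For factor XIII, the transglutaminase of the clot, F13A1 encodes the catalytic subunit and F13B its carrier. F13A1 kept 4 of 15 probe sets and differed by 0.10 (interval -1.45 to 1.65). F13B kept 6 of 15 and had 2.76 and 2.32 against 2.87 and 2.80, a difference of 0.29 (SE 0.22) at values near the dim limit, which was 0.070 without the second siNTC array.

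The vitamin K-dependent proteins did not share a direction. F7, the protease that starts clotting with tissue factor, had 5.41 and 5.24 in siNTC and 4.94 and 4.86 in siNF90 cells. It differed by -0.43 (SE 0.18, interval -0.90 to 0.047), and 8 of its 10 probe sets had negative differences. F2, prothrombin, had 7.99 and 7.85 against 8.13 and 8.09, a difference of 0.19 (SE 0.18). Its groups were 0.10 apart, less than the gap between its siNTC arrays. F10, which forms the prothrombinase with factor V, had a difference of -0.062 (interval -0.59 to 0.46) and overlapping groups. PROS1, the protein S cofactor of activated protein C, had the narrowest interval of these proteins, at 8.11 and 8.15 against 8.14 and 8.18 with a difference of 0.027 (interval -0.42 to 0.47). A further 4 probe sets carry its symbol beside others and were not used. PROZ, protein Z, which helps to inhibit factor Xa, differed by 0.051 (SE 0.26). F9, the protease of haemophilia B, kept 2 of 8 probe sets, and its siNF90 values of 1.82 and 3.64 lay on both sides of the siNTC values.

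PROC encodes protein C, which inactivates factors Va and VIIIa once thrombin has cut it. Its gene values were 7.58 and 7.59 in siNTC and 7.75 and 7.60 in siNF90 cells, and the difference of 0.089 (SE 0.18, interval -0.37 to 0.55) had an adjusted p of 0.904 in limma. The 14 probe sets, numbered in the order of their IDs, did not shift together. Probe set 2 read 0.99 and 0.96 on the siNTC arrays and 3.51 and 3.65 on the siNF90 arrays. Both siNTC values lie under the dim limit and it passed the filter only through its siNF90 values, so no difference, interval or p is given for it. In limma on single probe sets none of PROC passed after adjustment, beside 0% of all probe sets.

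The other 13 probe sets of PROC differed by between -0.33 and 0.22. Of them 9 were negative and 4 positive, and the smallest unadjusted p was 0.300. Groups were without overlap in 5 that were lower, beside 20.3% of all probe sets. Among them were probe set 13 with 9.38 and 9.37 in siNTC against 9.02 and 9.08 in siNF90 cells, and probe set 11 with 9.51 and 9.33 against 9.17 and 9.08. Probe set 12 went the opposite way, with 8.81 and 8.78 against 8.99 and 9.04. Of all probe sets 18.0% were higher without overlap. Probe sets 4, 6 and 7 were the remaining lower ones without overlap, by -0.16, -0.17 and -0.33. Probe sets 1, 3, 5, 8, 9, 10 and 14 had overlapping groups and differences between -0.16 and 0.089. Without probe set 2 the PROC gene difference was -0.11, so the sign of the gene mean rests on that probe set.

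**Figure D3:**
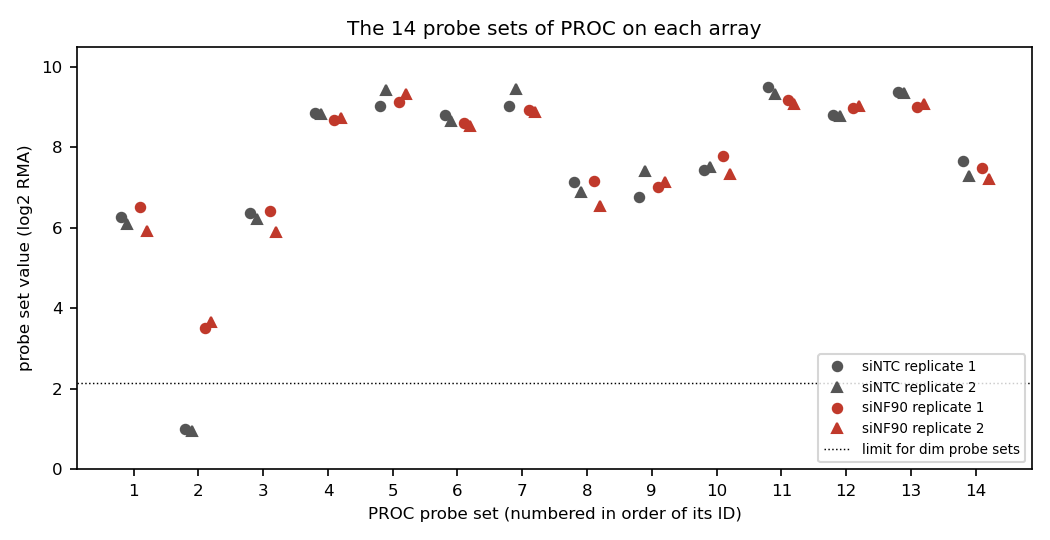
Value of each of the 14 PROC probe sets (x axis, numbered by ID) on each array (log2 RMA, y axis), with grey for siNTC, red for siNF90, circles for replicate 1, triangles for replicate 2 and a dotted line at the dim limit. Probe set 2 lies near 1 in siNTC and at 3.51 and 3.65 in siNF90 cells, while the arrays lie close together at the other 13.

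A formal test of unequal change within a gene, limma's diffSplice F test on kept probe sets, called PROC and VKORC1 at a false discovery rate under 0.05. These were the 2 called among the 32 genes, beside 0.457% of the 16175 genes that could be tested. VKORC1, the vitamin K epoxide reductase and target of warfarin, had 1 probe set that read 1.94 and 1.79 in siNTC and 4.27 and 4.30 in siNF90 cells, and another that differed by -0.82. Its other 6 probe sets lay between -0.12 and 0.094. In both genes the call rests on a probe set below the dim limit in siNTC cells that passed the filter only through its siNF90 values. No rate is therefore given for these calls, and unequal change cannot be read from them. When only probe sets above the dim limit on every array were used, the rate was 1.00 for PROC and 0.851 for VKORC1. With the filter at the 60th percentile 2 other genes passed, PROS1 (0.042) and KNG1 (0.0458), beside 57 of the 12002 genes tested there. Under the limit on every array these had 0.058 and 0.0608.

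The gene values of the carboxylation enzymes had intervals that held 0 and shifts of either sign. VKORC1 had 6.97 and 7.15 against 7.28 and 7.26, a difference of 0.21 (SE 0.18, interval -0.26 to 0.68). It turned to -0.11 without its most different probe set, which passed the dim filter only through its siNF90 values. GGCX, the gamma-glutamyl carboxylase itself, differed by 0.048 (interval -0.46 to 0.55) with overlapping groups.

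Contact factors, which start clotting on charged surfaces, were split. F11, factor XI, had 3.58 and 3.55 in siNTC and 4.01 and 3.86 in siNF90 cells, a difference of 0.37 (SE 0.18, interval -0.095 to 0.83), with 10 of 13 probe sets positive. Of those 10, 1 read 1.91 and 2.09 in siNTC and 2.75 and 2.94 in siNF90 cells. It passed the dim filter only through its siNF90 values, so it cannot count for a direction. KNG1, the kininogen that carries bradykinin, had 6.19 and 6.42 against 6.16 and 5.91, a difference of -0.27 (SE 0.20) that was -0.14 without the second siNF90 array. Its probe sets diverged, with 1 at 4.29 and 5.01 in siNTC and 5.86 and 6.22 in siNF90 cells and 1 at 5.77 and 6.26 against 3.71 and 4.55. F12, factor XII, had 3.28 and 3.20 against 3.19 and 2.49, and without the second siNF90 array its difference of -0.39 (SE 0.28) shrank to -0.046. KLKB1, plasma prekallikrein, kept 6 of 22 probe sets and differed by 0.048. HABP2, a hyaluronan-binding protease that can activate factor VII, differed by 0.097, and both had overlapping groups.

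**Figure D4:**
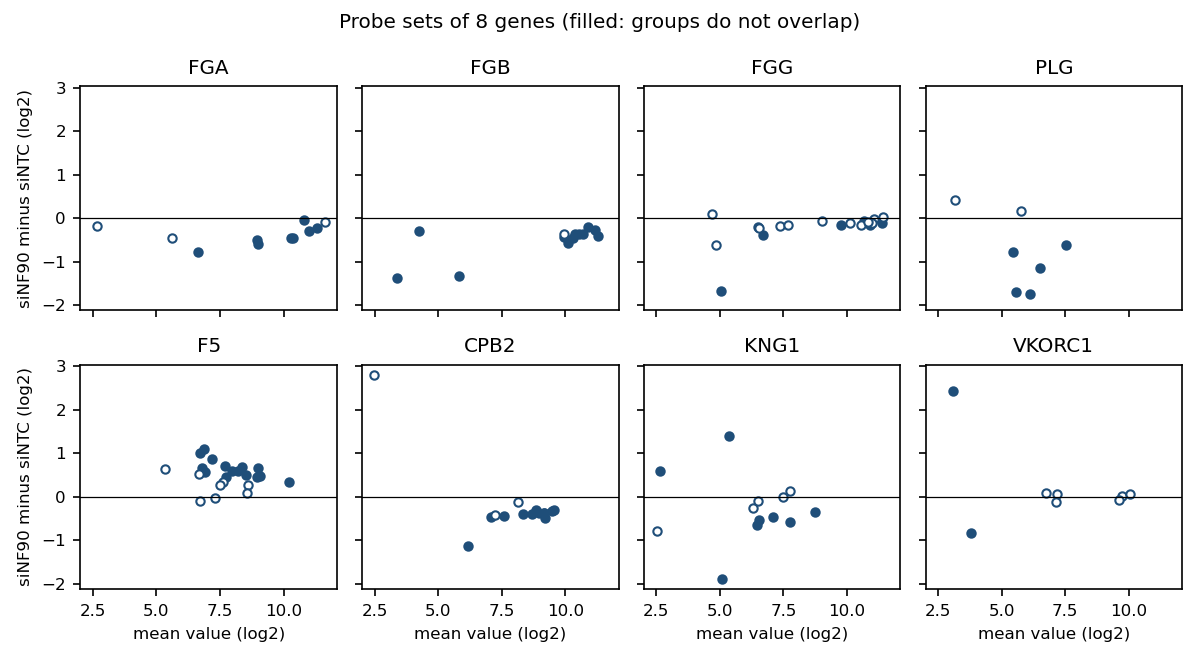
Difference of each kept probe set (siNF90 minus siNTC, log2, y axis) against its mean over the 4 arrays (log2, x axis) for 8 genes, with filled points where the groups do not overlap. Probe sets of FGA, FGB and CPB2 lie below 0 apart from 1 dim CPB2 probe set, those of F5 lie mostly above, and the widest differences of VKORC1 belong to its dimmest probe sets.

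Of the 5 inhibitors of coagulation tested, 4 had negative differences (80%, beside 52.5% of all genes). The groups did not overlap in SERPINC1 and SERPINA5, both lower (40%, beside 22.0%), and in TFPI, which was higher (20%, beside 19.2%). SERPINC1, antithrombin, had 5.23 and 5.04 in siNTC and 4.67 and 4.65 in siNF90 cells, a difference of -0.47 (SE 0.18, interval -0.95 to 0.0010) with an unadjusted p of 0.0503 and an adjusted p of 0.567 in limma. SERPINA5, the protein C inhibitor, had 5.96 and 5.97 against 5.67 and 5.66. Its arrays agreed within each group to 0.0088 or less, but the difference of -0.30 (SE 0.17, interval -0.74 to 0.14) did not pass. limma's SE draws on the spread of all genes. SERPIND1, heparin cofactor II, differed by -0.096 (interval -0.60 to 0.41) with overlapping groups, although 6 of its 7 probe sets were negative. TFPI, which blocks factor Xa and the factor VIIa complex, had 7.04 and 7.10 against 7.20 and 7.33, a difference of 0.19 (SE 0.18). Its relative TFPI2 kept 4 of 10 probe sets and differed by -0.32 (SE 0.36). All 4 probe sets of THBD, the thrombin receptor thrombomodulin that is typical of endothelium, lay below the dim limit and were not tested.

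Other genes of haemostasis were read from a list of 34, of which 30 were tested. At an unadjusted p under 0.05 there was 1, with a positive difference, and 0 passed over all genes in limma. That gene was F3, tissue factor, the receptor that starts clotting with factor VII. It had 3.75 and 3.71 in siNTC and 4.71 and 4.74 in siNF90 cells. Its difference of 0.99 (SE 0.17, interval 0.55 to 1.44) is 1.99-fold higher, with an unadjusted p of 0.00255 and an adjusted p of 0.514. The list's median difference was 0.026, with 16 positive and 14 negative differences, and 5 genes were higher (16.7%, beside 19.2% of all genes) and 3 lower (10%, beside 22.0%) without overlap. The share at an unadjusted p under 0.05 was 3.33%, beside 8.79% of all genes. A second list, of vitamin K metabolism, Gla proteins and the export of factors V and VIII, had 18 of 20 genes tested, and 0 passed. At an unadjusted p under 0.05 in limma it held 1 gene (5.56%, beside 8.79% of all genes). This was FURIN, a proprotein convertase that processes secreted precursors, at 5.28 and 5.50 against 6.06 and 6.09. FURIN differed by 0.69 (SE 0.18, interval 0.20 to 1.17), with an unadjusted p of 0.0153 and an adjusted p of 0.514 in limma. The median of that list was 0.072. Without overlap 5 of its genes were higher (27.8%, beside 19.2% of all genes) and 3 lower (16.7%, beside 22.0%).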

How the data were processed

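Total RNA of Huh7 cells was hybridised to 1 array per sample, 2 siNTC and 2 siNF90. Per the labels, the deposited values are RMA-sketch output of Affymetrix Expression Console made by the authors, read here as log2 from the method and the range. Its version and the genome build were not stated there. RMA corrects background, normalizes quantiles and summarises probes, and tends to pull folds towards 1.

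The table held 352859 probe sets, of which 257971 had 1 gene symbol in the platform's table, 17460 several and 77428 none. Probe sets with 1 symbol and a mean at or above the 40th percentile (171120) were averaged per gene. All 34 symbols were found directly, and 370 of their 470 probe sets were kept. The fit was limma 3.58.1 in R 4.3.3 (lmFit, eBayes, two-sided, no covariate), with Benjamini-Hochberg adjustment over all genes or probe sets at 0.05. Unequal probe sets were tested with diffSplice. Intervals cover 95% and come from this fit; 2 arrays per group limit the precision. The fit was first checked on made-up data with known differences. Of 100 made-up genes with a difference of 1 log2 unit it called 3, and 23 with the trend and robust prior. Of 100 with 3 log2 units it called 96, and of 18940 with none it called 7. A member that was not called may therefore still differ. Arrays that share a replicate number were compared by how far each gene lay from its group mean, which gave r = -0.0118 across all genes and 0.345 across the 32 members, and the labels name no shared culture or day, so the block is an alternative only.

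Members and lists were chosen with earlier results of these data known. All members are named by rule. Arrays are written in full for those with an unadjusted p under 0.05 or without overlap, and for PROC. From the other lists, genes with an unadjusted p under 0.05 are named. Probe sets singled out within genes were chosen after their values were seen. Alternatives were other dim filters, the median of rows, quantile normalization again, centring, a trend and robust prior, the replicate block, identical rows counted once, each array left out, and, added later, removal of each gene's most different probe set and other filters for unequal probe sets.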

Additional observations from a re-analysis of the deposited data

How the results depend on the processing

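In the 12 planned settings 0 of the members tested passed, which were 29 with the 60th percentile filter (F9, F13B and TFPI2 had no probe set left), 34 without the dim filter and 32 otherwise. Over all genes limma called 4 without the dim filter and 48 with the trend and robust prior, and 0 in the others. With the replicate number as a block it called 0 genes, and the members' smallest adjusted p was 0.615. With all arrays 10 to 13 members were lower without overlap (31.2% to 41.4% of those tested, beside 20.2% to 23.6% of all genes). The count higher was 5 with the median of rows (15.6%, beside 18.2%). It was 4 without the most different probe set of each gene (12.5%, beside 19.1%). With an array left out 1 array stands against 2, and groups are apart more often in all genes: 13 to 16 members were lower (40.6% to 50%, beside 32.3% to 42.2% of all genes) and 8 to 14 higher (25% to 43.8%, beside 30% to 37.4%). The members' median difference ranged from -0.17 to 0.047 with an array left out. Of the 32 genes 17 kept their sign in all 13 alternatives, among them the fibrinogen genes, PLG, F5, F7 and SERPINC1, and F13B kept it in the 12 that measured it. Their ranges over all settings included -0.97 to -0.61 (PLG), -0.60 to -0.44 (FGB) and 0.33 to 0.57 (F5). In 9 of these 18 genes leaving out 1 array moved the difference by over 1.5 times, with ranges of -0.33 to -0.12 (FGG), 0.12 to 0.27 (F2), 0.070 to 0.51 (F13B), -0.74 to -0.046 (F12), -0.39 to -0.14 (KNG1), 0.13 to 0.26 (TFPI), 0.076 to 0.22 (PLAT), -0.11 to -0.011 (SERPINF2) and -0.34 to -0.068 (CPB2). The others changed sign, and the cause was not tested. With the 60th percentile filter the differences were 0.20 (F10), -0.11 (PROC), -0.079 (PROZ), -0.11 (VKORC1) and -0.049 (KLKB1). With the median of rows they were 0.67 (F10), -0.099 (PROC), -0.025 (VKORC1), -0.039 (HABP2), 0.037 (PLAU) and -0.16 (HRG). Without the dim filter they were -0.44 (F13A1) and -0.025 (HABP2). Without the most different probe set they were 0.23 (F9), 0.071 (F10), -0.11 (PROC), -0.053 (PROS1), -0.11 (PROZ), -0.061 (GGCX), -0.11 (VKORC1), -0.058 (HABP2), 0.0003 (TFPI2) and 0.040 (PLAU). With an array left out the ranges were -1.32 to 0.50 (F9), -0.23 to 0.10 (F10), -0.22 to 0.32 (PROZ), -0.090 to 0.19 (GGCX), -0.61 to 0.81 (F13A1), -0.17 to 0.27 (KLKB1), -0.043 to 0.24 (HABP2), -0.22 to 0.027 (SERPIND1), -0.78 to 0.13 (TFPI2), -0.23 to 0.10 (PLAU) and -0.99 to 1.14 (HRG). For single PROC probe sets those ranges were -0.28 to 0.34 (1), -0.40 to 0.12 (3), -0.19 to 0.22 (5), -0.48 to 0.15 (8), -0.34 to 0.31 (9), -0.14 to 0.32 (10) and -0.33 to 0.063 (14). Probe set 9 was 0.010 after quantile normalization again and 0.0007 after centring. Unequal probe sets were called in 74 genes, in 57 with the 60th percentile filter and in 20 with the limit on every array, where 0 of the 32 genes passed. The rate of PROC was then 1.00 under both filters and that of VKORC1 0.874 and 0.851, because the probe set below the limit in siNTC cells is not in those fits.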
